A study of Arabidopsis thaliana with 8 samples.

Results

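The 33 xyloglucan endotransglucosylase/hydrolase genes of Arabidopsis thaliana, XTH1 to XTH33, were examined in rosette leaves on 8 Affymetrix arrays. The members were chosen by their locus identifiers, and all 33 were found among the 27826 loci of the deposited table. The family was taken up because XTH22 and XTH31 were already known to lie among the largest changes of this comparison, so its values describe these arrays and no test of the family as a whole is given. The control arrays, 4 in number, are of wild type Col-0 plants. The other 4 came from a mutant that the labels describe as having a depleted NAA50 steady-state level and enter under the ecotype name animaa50. How the depletion was made, how many lines were used and whether an array stands for 1 plant or several are not given in the labels, so p-values rest on array-to-array spread, which may be technical. Plants of both genotypes were grown on soil in short days to an age of 7 weeks, and leaves were frozen 2 h into the light period.

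Xyloglucan is the main hemicellulose of the primary wall in this plant, a glucan backbone with xylose-containing side chains that binds cellulose microfibrils. XTH enzymes cut the backbone and join the new end either to another xyloglucan chain, which is the endotransglucosylase activity, or to water, which is the endohydrolase activity. By sequence the family is divided into group I (XTH1 to XTH11), group II (XTH12 to XTH26) and group III (XTH27 to XTH33). Within group III, XTH31 and XTH32 form subgroup IIIA, whose members act mainly as hydrolases, and XTH27 to XTH30 form subgroup IIIB. In leaves, XTH genes are known to respond to touch, darkness, shade, temperature and growth hormones, each gene in its own way.

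Values are RMA expression values taken as log2, and every difference below is the arrays labelled NAA50-depleted minus the wild type arrays. NAA50 itself had a mean of 10.38 on the arrays labelled depleted and 4.55 on the wild type arrays, which goes against the label if a depleted transcript is meant. Directions are therefore those of the arrays as labelled. A gene was called at an adjusted p under 0.05 in limma, with Benjamini-Hochberg adjustment over all loci. The median value of each array was 2.73, and signal over background was not shown for values near or below it. Of the 5 mesophyll markers CAB2 lay below that median, with means of 2.16 in wild type and 1.84 on the arrays labelled depleted, and the other 4 lay above it, RBCS1A having a mean of 13.3 in each group. All 6 root markers lay below the array median on all 8 arrays. Levels in a leaf sample mix the amount of RNA per cell with the number of cells of each type, and these cannot be told apart here.

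Of the 33 XTH genes, 10 were higher and 3 were lower on the arrays labelled NAA50-depleted, and 20 were not called. XTH22, XTH25, XTH23, XTH33, XTH27, XTH24, XTH30, XTH9, XTH4 and XTH28 rose, in order of falling size, and XTH31, XTH32 and XTH7 fell. The called members make up 39.4% of the family, where 14.5% of all loci were called, 6.95% higher and 7.58% lower. Nothing about the family is read from that contrast, since known changes led to its choice. Of the called members, 7 rose at least 2-fold and 3 fell at least 2-fold, against 3.19% and 1.57% of all loci. The median member differed by 0.08 and the median locus by -0.03, with 22 members at a positive and 11 at a negative difference. No XTH gene was called in limma whose mean over the 8 arrays lay below the array median. Of the 18 members with a mean above it 13 were called, where 26% of such loci were called, 12.1% higher and 13.9% lower. That mean includes the arrays labelled depleted, so a rise can itself lift a gene over the median. All wild type values of XTH25, for example, lay below it. Nothing about the family is read from this contrast either.

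**Figure D1:**
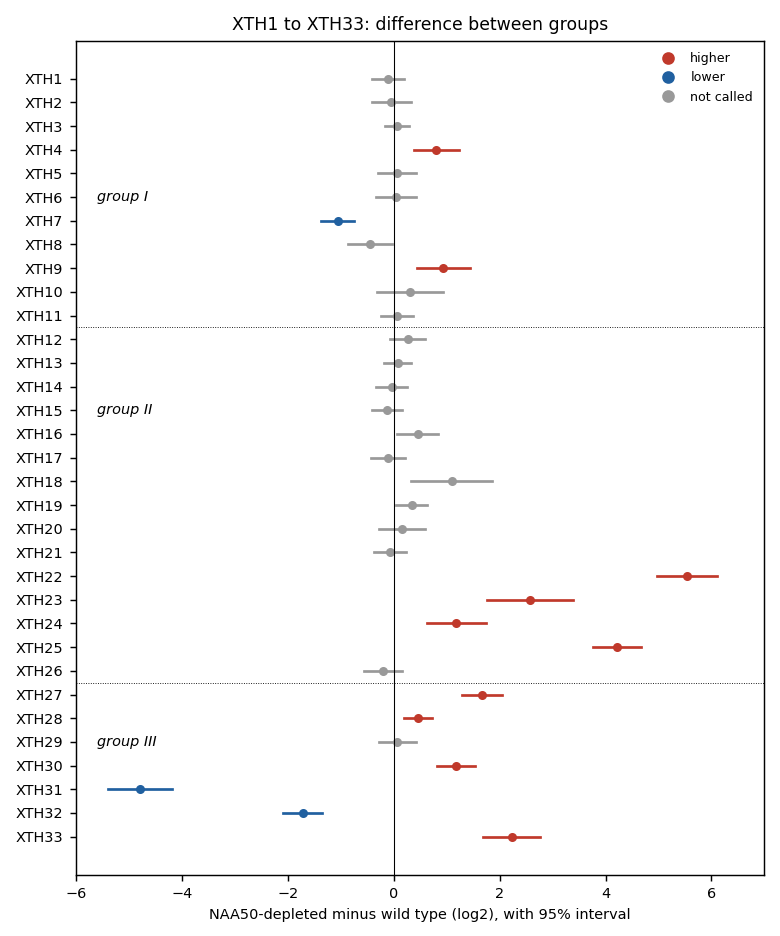
Differences of the 33 XTH genes between the arrays labelled NAA50-depleted and wild type (log2, x axis), 4 arrays per group; points are fitted differences and bars their 95% intervals, red for genes called higher, blue for genes called lower and grey for genes not called, with dotted lines between groups I, II and III. Called genes reach from XTH31 at -4.79 to XTH22 at 5.54, and most genes of groups I and II lie close to 0.

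In group II the 4 genes XTH22, XTH23, XTH24 and XTH25 rose, and XTH22, XTH25 and XTH23 had the 3 highest differences of the family. XTH22 (AT5G57560), also called TCH4, was first known as a gene induced by touch and is also induced by darkness, temperature shock and brassinosteroids. Its wild type values were 2.84, 3.31, 3.42 and 4.34, and its values on the arrays labelled depleted were 8.96, 8.96, 9.23 and 8.93. The lowest value labelled depleted thus lay far above the highest wild type value, and the wild type arrays differed among themselves more than the others did. XTH22 thus differed by 5.54 ± 0.26 log2 units (SE over 4 and 4 arrays), 46.6-fold, and ranked 4 among all increases. Because this gene drew attention to the family, no p-value is given for it.

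XTH25 (AT5G57550), formerly XTR3, rose by 4.21 ± 0.21 (SE, n = 4 and 4) or 18.5-fold, and ranked 10 among all increases. Wild type arrays gave 2.03, 2.34, 2.11 and 2.65, all below the array median, against 6.92, 6.76, 6.04 and 6.26. The direction rests on groups that are far apart, but the 18.5-fold is a rough size because the wild type level may lie at background. XTH23 (AT4G25810), formerly XTR6, rose by 2.57 ± 0.37 (adjusted p = 0.000728 in limma), or 5.94-fold. It was the most variable member in wild type, with values of 3.32, 4.61, 2.59 and 3.58 and an SD of 0.84, and it stood at 6.11, 6.40, 6.46 and 5.40 on the other arrays. No array labelled depleted reached down into the wild type range. Wild type replicate 3 lay below the array median, so the 5.94-fold is also a rough size.

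XTH24 (AT4G30270), known as MERI5 or SENESCENCE 4, had wild type values well above the array median. Wild type values of 6.60, 7.01, 7.27 and 6.62 stood against 8.29, 8.15, 8.52 and 7.28, a difference of 1.18 ± 0.25 (SE, n = 4 and 4, adjusted p = 0.00847 in limma) or 2.27-fold. Labelled-depleted replicate 4 only just cleared wild type replicate 3, and without replicate 4 the difference was 1.44. Replicate 4 was likewise the lowest of its group for XTH23 and for XTH22, by little in the latter.

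The other 11 members of group II were not called, so 26.7% of the group was called, where 14.5% of all loci were. Since XTH22 led to the choice of the family, nothing about group II is read from that share. They include genes known mainly from roots, such as XTH17, XTH18, XTH19 and XTH20, and XTH26, known from root hairs. XTH18 (AT4G30280) came closest, with 2.81, 2.23, 2.99 and 1.62 in wild type and 2.89, 4.07, 4.11 and 2.98 on the arrays labelled depleted. These ranges overlapped, and the difference of 1.10 ± 0.35 (SE, n = 4 and 4) had an adjusted p of 0.0582 in limma. It passed the threshold in 5 of 14 alternative fits, including the one without wild type replicate 3, where it was 1.29. XTH19 had values of 1.27, 1.32, 1.08 and 1.32 against 1.36, 1.51, 1.87 and 1.59, which did not overlap, yet the difference of 0.34 ± 0.13 had an adjusted p of 0.125. All values of XTH19 lay below the array median.

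**Figure D2:**
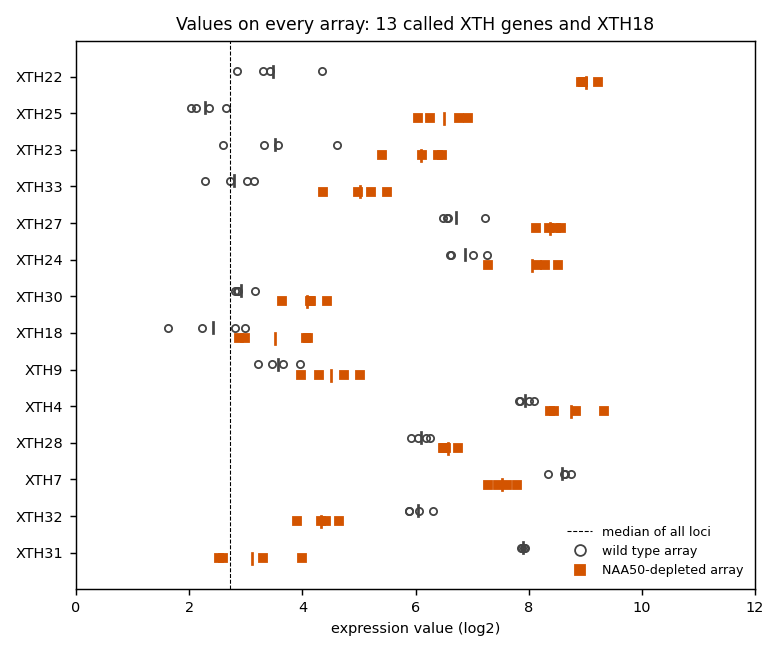
Expression values (log2, x axis) on each of the 8 arrays for the 13 called XTH genes and XTH18, ordered by difference; open circles are wild type arrays, filled squares arrays labelled NAA50-depleted, vertical ticks the group means and the dashed line the array median of 2.73. The groups do not overlap for any of the 13, whereas XTH18 overlaps, and XTH31 shows tight wild type values near 7.90 beside spread values of 2.52 to 4.00.

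Group III changed in both directions. How these directions lie along its subgroups was looked at after the values were seen and was not tested. Both members of subgroup IIIA, the hydrolases, fell. XTH31 (AT3G44990), formerly XTR8, is reported to affect how much aluminium the root wall binds. Its wild type values were 7.92, 7.94, 7.86 and 7.88, with an SD of 0.04 that was among the smallest of the family. The mutant arrays gave 2.60, 2.52, 4.00 and 3.30, with an SD of 0.69, the highest of the family in that group. XTH31 thus fell by 4.79 ± 0.27 (SE, n = 4 and 4), 27.7-fold, and no other locus had a more negative difference. Replicates 1 and 2 of that group lay below the array median, so the fold may be understated or overstated while the direction is clear. As the second gene that drew attention to the family it is given without a p-value.

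XTH32 (AT2G36870), the other hydrolase, was lower by a smaller amount. Wild type arrays held 6.31, 6.06, 5.89 and 5.89, and the arrays labelled depleted held 3.90, 4.65, 4.33 and 4.41. The gap between the groups was wider than the range within either. XTH32 fell by 1.71 ± 0.17 (SE, n = 4 and 4, adjusted p = 5.8e-05 in limma), 3.28-fold, and ranked 71 among all decreases. For XTH31 the lowest value labelled depleted was on replicate 2, and for XTH32 on replicate 1. When 1 array was left out in turn, XTH31 differed by -5.09 to -4.60 and XTH32 by -1.82 to -1.57. Neither fall thus rested on a single array.

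Subgroup IIIB moved upward in 3 of its 4 members. XTH27 (AT2G01850), also EXGT-A3, is known for a part in the tracheary elements of leaf veins. Its values were 6.56, 6.58, 6.49 and 7.23 in wild type and 8.57, 8.35, 8.47 and 8.12 on the other arrays, a rise of 1.67 ± 0.18 (SE, n = 4 and 4, adjusted p = 9.49e-05 in limma) or 3.17-fold. Wild type replicate 4 stood apart from its group, and without it the difference was 1.84. XTH30 (AT1G32170), a gene linked to salt sensitivity, had 2.86, 3.16, 2.84 and 2.80 against 4.13, 3.64, 4.43 and 4.16. The rise of 1.17 ± 0.17 (adjusted p = 0.000676) started from a level close to the array median.

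XTH28 (AT1G14720), known for growth of the stamen filament, showed the smallest change of the called members. It measured 6.19, 6.04, 6.26 and 5.92 in wild type and 6.74, 6.51, 6.48 and 6.54 on the arrays labelled depleted. The groups were separate but close, at 0.46 ± 0.12 (SE, n = 4 and 4, adjusted p = 0.0242 in limma), or 1.38-fold. Leaving out wild type replicate 2 (0.44), wild type replicate 4 (0.40) or labelled-depleted replicate 1 (0.41) ended the call. XTH29, the fourth member, differed by 0.07 ± 0.16 with all values below the array median.

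XTH33 (AT1G10550), which is predicted to carry a membrane anchor, had wild type values of 2.72, 2.28, 3.14 and 3.02 around the array median and values of 4.98, 4.37, 5.22 and 5.49 on the arrays labelled depleted. It rose by 2.23 ± 0.25 (SE, n = 4 and 4, adjusted p = 0.000128 in limma), or 4.68-fold. Every array of the latter group was more than 1 log2 unit above the highest wild type array. Over group III, 4 of 7 members were called higher, 2 lower and 1 was not called. Over all loci 6.95% were called higher and 7.58% lower. Since XTH31, which led to the choice of the family, is among these members, nothing about group III is read from the counts.

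**Figure D3:**
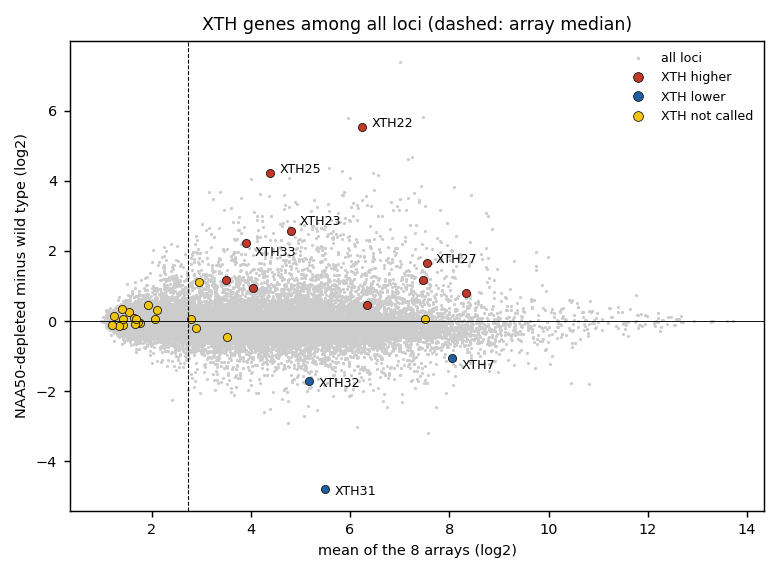
Mean over the 8 arrays (log2, x axis) against the difference between the groups (log2, y axis) for all 27826 loci in grey and the 33 XTH genes in colour, red called higher, blue called lower and yellow not called; the dashed line is the array median of 2.73. XTH22, XTH25 and XTH31 lie at the outer edge of the cloud, and 15 of the 20 XTH genes not called lie left of the dashed line.

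In group I, 2 of the 11 members were higher and 1 lower, and differences reached from -1.06 to 0.94. The called members are 27.3% of the group, where 14.5% of all loci were called, 6.95% higher and 7.58% lower. Nothing about group I is read from that contrast. XTH4 and XTH9 are both reported to act in wood formation, and XTH9 is also expressed in shoot apices. XTH4 (AT2G06850) gave 8.09, 7.82, 8.0 and 7.85 in wild type and 8.38, 8.83, 8.45 and 9.33 on the arrays labelled depleted, higher by 0.80 ± 0.19 (SE, n = 4 and 4, adjusted p = 0.016 in limma) or 1.75-fold. XTH9 (AT4G03210) had 3.66, 3.95, 3.21 and 3.46 against 4.29, 4.74, 3.98 and 5.03, higher by 0.94 ± 0.23 (adjusted p = 0.0167) or 1.92-fold. In both genes labelled-depleted replicate 4 was the highest array, and without it the differences were 0.61 and 0.77 and were still called. The call of XTH9 was lost without labelled-depleted replicate 2, at 0.86 with an adjusted p of 0.0519.

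XTH7 (AT4G37800) was the third member to fall. From 8.63, 8.65, 8.75 and 8.34 in wild type it went to 7.28, 7.61, 7.45 and 7.79, a fall by 1.06 ± 0.14 (SE, n = 4 and 4, adjusted p = 0.000459 in limma) or 2.09-fold. It was the only called decrease outside subgroup IIIA. XTH6, also well above the array median, differed by 0.04 ± 0.17, its 95% interval running from -0.33 to 0.42, and XTH8 by -0.45 ± 0.19 (adjusted p = 0.167). The 8 members of group I that were not called include XTH3, whose enzyme can join cellulose to xyloglucan, at 0.06 ± 0.10 with all values below the array median.

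Of the 20 members not called, 14 had values below the array median on all 8 arrays. No call does not show that these genes were silent or alike. Of the 15 members whose mean did not exceed the median, none was called in limma, where 3.04% of all such loci were called. With so low a share, the lack of calls is not read as a result about these members. At an unadjusted p under 0.05, 2 of the 15 were higher and none lower, where 11.3% of all loci were higher and 14.6% lower. These counts are not read as a result about the members either. The share of all such dim loci at that threshold was not computed. Apart from XTH18, the members not called differed by at most 0.45 in size, and their 95% intervals reached at most from -0.87 to 0.93. The SD within a group of 4 arrays had a median over members of 0.20 in wild type and 0.25 on the arrays labelled depleted. Values of 14 members did not overlap between the groups, which is 42.4% of the family beside 18.8% of all loci. In 11 of them the mutant arrays were the higher ones and in 3 the lower, beside 8.48% and 10.4% of all loci.

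Some XTH genes sit side by side, and whether neighbours moved together was not tested. By the gene order of the TAIR10.1 assembly, 10 members form 4 runs with no other measured locus between them. On chromosome 5, XTH13, XTH25 and XTH22 are adjacent, with XTH12 1 measured locus beyond XTH13. XTH25 and XTH22, next to each other at one end, carried the highest increases of the family. XTH13 had 1.62, 1.47, 1.75 and 1.55 in wild type and 1.61, 1.58, 1.85 and 1.66 on the arrays labelled depleted, a difference of 0.08 ± 0.12 (SE, n = 4 and 4). XTH12 had 1.29, 1.61, 1.27 and 1.52 against 1.33, 1.89, 1.70 and 1.82, a difference of 0.26 ± 0.15. Neither was called, the groups overlapped in both genes, and all their values lay below the array median. AT5G57565, the neighbour on the far side of XTH22, was higher by 1.14 ± 0.17 (adjusted p = 0.000801 in limma).

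On chromosome 4, XTH23 lies beside XTH14, and XTH24 beside XTH18 and XTH19. XTH14, known from roots, had values of 1.73, 2.06, 1.53 and 1.65 against 1.70, 1.62, 1.87 and 1.63, with no separation of the groups, while XTH23 next to it rose by 2.57. Differences along the other run fell from XTH24 (1.18, called) through XTH18 (1.10) to XTH19 (0.34), the last 2 not called. XTH1 and XTH2 form the remaining pair, neither of them called. Of the 8 measured loci that flank the 4 runs, AT5G57565 was the only one called, where 14.5% of all loci were called. So near that share, the count is not read as a result about the neighbours. The others differed by -0.24 to 0.49. Whether the probes tell these closely related neighbours apart was not examined, since no probe sequences were used here. The choice to look at neighbours was made after the values were seen.

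**Figure D4:**
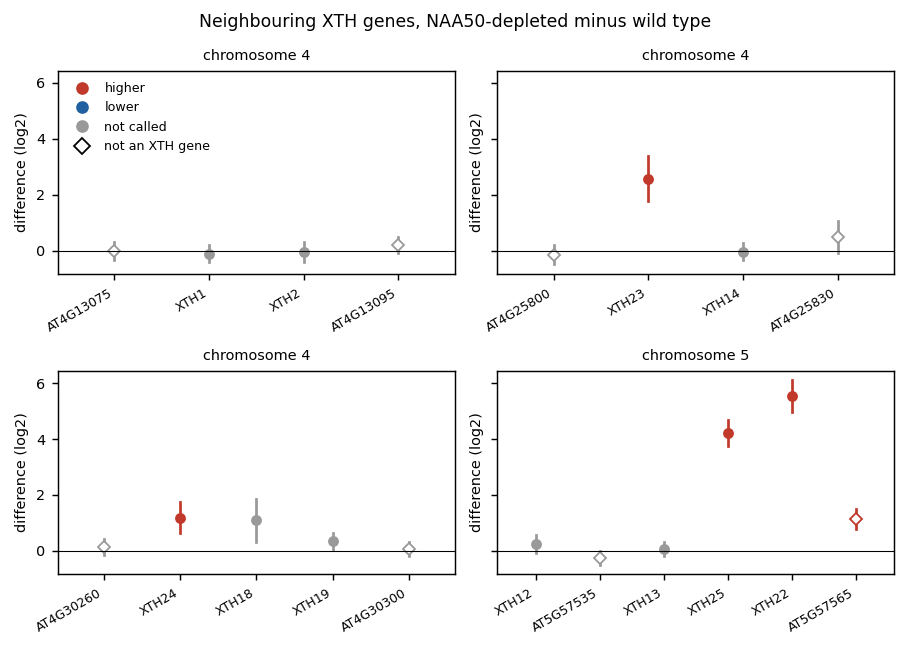
Differences between the arrays labelled NAA50-depleted and wild type (log2, y axis) for XTH genes that lie next to each other and for the flanking measured loci, in order along the chromosome on the x axis and not to scale; bars are 95% intervals, open diamonds are loci outside the family, red is called higher and grey not called. XTH22 and XTH25 rise steeply beside XTH13 and XTH12 near 0, and XTH23 rises beside XTH14 near 0.

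The substrate of these enzymes is made in the Golgi by a glucan synthase of the CSLC family, xylosyltransferases of the XXT family, the galactosyltransferases MUR3 and XLT2, the fucosyltransferase FUT1 and the acetyltransferase AXY4. Of 15 genes listed for this synthesis 2 were higher, 5 lower and 8 not called, with a median difference of -0.25. Over all loci 6.95% were called higher and 7.58% lower. Of the 15 genes, 4 had values below the array median on all 8 arrays. Of the 5 XXT genes 1 was higher, 1 lower and 3 not called, and the 5 CSLC genes gave the same counts. XXT1 had wild type values of 2.76, 2.78, 2.59 and 2.62 and values of 4.41, 4.60, 4.97 and 4.63 on the arrays labelled depleted, a rise of 1.97 ± 0.13 (SE, n = 4 and 4, adjusted p = 6.1e-06 in limma) from near the array median. XXT2 had 5.10, 5.67, 5.37 and 5.24 against 4.82, 4.86, 4.44 and 4.74, lower by 0.63 on average and called (adjusted p = 0.0153). Their groups did not overlap in either case, and the directions were opposite.

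Among the glucan synthase genes, CSLC4, known as the main member of its family in most tissues, rose by 0.76 ± 0.14 (SE, n = 4 and 4), from 7.27 to 7.50 in wild type to 7.92 to 8.49 on the other arrays. CSLC5 fell by 1.55 ± 0.20, from 5.99 to 6.81 in wild type to 4.53 to 5.10, the largest fall among the listed xyloglucan genes. Of the enzymes that act on the side chains after xylose is added, those called fell, XLT2 by 0.73 ± 0.16, AXY4 by 0.71 ± 0.14 and MUR3 by 0.42 ± 0.11, the last of these with an adjusted p of 0.0199 that rose to 0.05 or more in 5 alternative fits. XXT2, AXY4 and MUR3 were named after their values were seen.

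Exo-acting enzymes of the wall trim the side chains that XTH products carry. Of 5 such genes 2 were higher, 1 lower and 2 not called, beside 6.95% of all loci called higher and 7.58% lower. XYL1, the alpha-xylosidase, fell by 0.59 ± 0.12 (SE, n = 4 and 4, adjusted p = 0.00636 in limma), with all arrays labelled depleted below all wild type arrays. BGAL10, a beta-galactosidase, and FUC95A, an alpha-fucosidase, rose by 0.66 ± 0.18 and 0.62 ± 0.17. Neither call held in every fit, and that of FUC95A was also lost with the replicate block. Without labelled-depleted replicate 2, labelled-depleted replicate 4 or wild type replicate 3, 2 of the 20 genes of synthesis and trimming together were higher in place of 4, and both BGAL10 and FUC95A had lost their calls.

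Cellulose genes differed by at most 0.72 in size. Of 10 genes for cellulose of the primary wall, the growing wall in which xyloglucan is found, none was higher and 2 were lower in limma. The shares of all loci were 6.95% and 7.58%, and the median difference of the 10 genes was -0.32. At an unadjusted p under 0.05 none was higher and 7 were lower, where 11.3% of all loci were higher and 14.6% lower at that threshold. CESA5 fell by 0.72 ± 0.13 and CESA6 by 0.45 ± 0.13 (SE, n = 4 and 4, adjusted p = 0.00308 and 0.0334 in limma). Both are partly interchangeable subunits of the cellulose synthase. The call of CESA6 was lost after cyclic loess normalization (-0.33) and in 6 of the 8 fits that left out 1 array. Of 6 genes for the secondary wall of xylem none was called in limma, and 1 was lower at an unadjusted p under 0.05, CESA7 having the largest difference at -0.37 ± 0.16 (adjusted p = 0.179).

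XTH22 is the fourth of the TCH genes, found as transcripts that rise after plants are touched, and the other members of that group are calmodulin or calmodulin-like genes. TCH3 had wild type values of 7.07, 7.38, 7.24 and 7.44 and values of 9.91, 10.39, 10.48 and 10.36 on the arrays labelled depleted, a rise of 3.00 ± 0.15 (SE, n = 4 and 4, adjusted p = 9.08e-07 in limma) or 8.02-fold. TCH2 gave 4.72, 5.02, 5.09 and 5.83 against 7.26, 7.50, 7.92 and 7.21, a rise of 2.31 ± 0.23 or 4.95-fold. Both were high on all 4 arrays labelled depleted, with no overlap, as XTH22 was. Over all loci 6.95% were called higher, and 8.48% had every array labelled depleted above every wild type array. Since the list was chosen with earlier results known, nothing about the TCH genes as a set is read from this. TCH1 was not called at 0.65 ± 0.28, with 1.80, 1.99, 2.20 and 1.65 against 2.46, 1.71, 3.36 and 2.69, and it passed without labelled-depleted replicate 2. Touching or handling of the plants is not recorded in the labels.

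**Figure D5:**
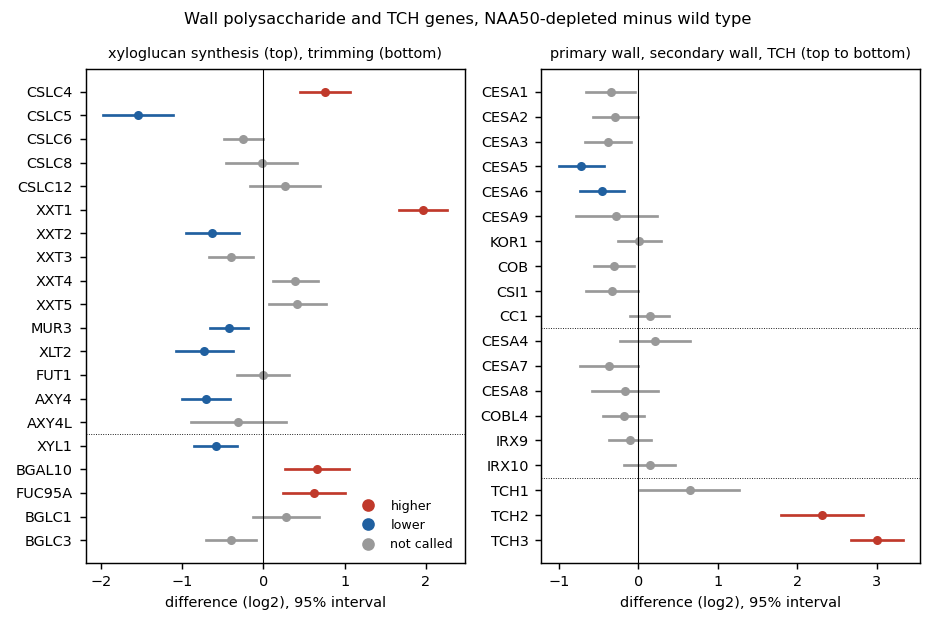
Differences between the arrays labelled NAA50-depleted and wild type (log2, x axes) with 95% intervals for genes of xyloglucan synthesis and side-chain trimming on the left and of primary wall cellulose, the secondary wall and the TCH genes on the right; red is called higher, blue called lower and grey not called. CSLC4 and XXT1 lie opposite CSLC5 and XXT2, the cellulose genes lie within 0.72 of 0, and TCH2 and TCH3 lie at 2.31 and 3.00.

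Markers of leaf cell types differed by at most 1.89 in size, that of CER1, an epidermal wax gene that fell and is named after its values were seen. Of the 13 called XTH genes 8 had a difference smaller than this and 5 a larger one, but that measure is 1 gene. The next largest marker difference was -0.92, that of the guard cell gene KAT1, also named after its values were seen. Of the called XTH genes, only XTH4 and XTH28 had a difference smaller in size than that of KAT1. Of 9 epidermis markers 1 was higher and 3 lower, with a median difference of -0.22 and a mean level per array of 6.91 to 7.12 in wild type and 6.40 to 6.71 on the arrays labelled depleted. Guard cell markers had 1 of 7 higher and 2 lower, with mean levels of 3.80 to 4.25 against 3.59 to 3.81. Over all loci 6.95% were called higher and 7.58% lower. At an unadjusted p under 0.05 these shares were 11.3% and 14.6%. Phloem markers had 1 of 6 higher and none lower in limma (2 and none at an unadjusted p under 0.05), at 4.29 to 4.77 against 4.60 to 4.84. None of the 5 mesophyll markers was called (1 lower at an unadjusted p under 0.05), at 8.66 to 8.92 against 8.61 to 8.73. Of these, CAB2 lay below the array median on all 8 arrays. RBCS1A read 13.33 on every array but wild type replicate 2 (13.27), near the highest value of all (13.71), so a change in it may not show. The genes of the secondary wall, which mark xylem, stood at 2.38 to 2.73 against 2.34 to 2.61. Of these 6 genes, 3 lay below the array median on all 8 arrays. The part of cell type proportions in the XTH differences was not tested.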

How the data were processed

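RNA of rosette leaves was hybridised as biotinylated cDNA to 8 Affymetrix arrays, 4 per genotype, per the labels' protocols; groups and replicate numbers come from the sample titles. Per the submitters' processing notes, the authors used RMA, and the deposited values were read as log2, the usual scale of that method; neither the log base nor the RMA version, chip definition or build is given in the sources used here. All 8 arrays hold the same sorted values, so the table is quantile-normalized and a shift of all transcripts cannot be seen. Precision is limited by having 4 arrays a group.

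Genotype was the single term of a linear model run on 27826 loci with limma 3.58.1 in R 4.3.3 (lmFit, eBayes, no filter), with two-sided p-values, Benjamini-Hochberg adjustment across the whole table and a threshold of 0.05. The fit was tested on simulated data. Intervals are 95% intervals of the moderated test. All 33 members and all 72 genes of the lists matched the RefSeq gene table of TAIR10.1, which gave names and gene order; no coordinates or sequences are printed. All 33 members are accounted for, with values on every array for those called and for the neighbours compared with them, and from each list other than the markers the 2 largest called increases and decreases, or the largest change where none was called. Members and lists were chosen with earlier results of these data known. Alternatives were cyclic loess normalization, a filter dropping loci that pass percentile 25 on fewer than 4 arrays, a robust variance with a trend, array weights, the replicate number as a block, an adjusted p of 0.01 and each array left out in turn. Raw scans, scan dates and background correction were not analysed here.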

Additional observations from a re-analysis of the deposited data

Results flagged for a closer look

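Dixon's ratio was used to look for an array that stands apart from its 3 fellows, in 144 groups of 4 values. It marked 8 of them, and chance marks about 1 in 20. In the XTH family 4 of 66 groups were marked. XTH10 stood at 3.30 on labelled-depleted replicate 1, beside 1.89 to 1.98 on the other 3 arrays, and the gene was not called. XTH27 stood at 7.23 on wild type replicate 4, beside 6.49 to 6.58, which narrows its rise. XTH30 was at 3.16 on wild type replicate 2, beside 2.80 to 2.86, and XTH22 at 9.23 on labelled-depleted replicate 3, beside 8.93 to 8.96, both small gaps in tight groups. Among the wall genes, CSLC8 was at 2.02 (others 2.65 to 2.77) and XXT4 at 3.40 (others 3.23 to 3.24) on labelled-depleted replicate 3. CESA3 was at 8.92 on wild type replicate 3 (others 8.66 to 8.69) and COB at 8.69 on wild type replicate 2 (others 8.85 to 8.88).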

How the results depend on the processing

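Of the 13 called XTH genes, 10 kept their direction and call in all 14 alternatives. Among the 10 are XTH22 and XTH31, whose large changes led to the choice of the family, so their kept calls add no support. XTH4, XTH9 and XTH28 kept their direction but lost the call at an adjusted p of 0.01. XTH9 and XTH28 also lost it without the single arrays named above. XTH members higher numbered 7 to 11 and members lower 3 throughout, with 9 to 11 and 3 when 1 array was left out. Xyloglucan genes higher numbered 2 and lower 3 at an adjusted p of 0.01, and 2 to 4 and 5 to 7 when 1 array was left out. Cellulose genes lower numbered 1 after cyclic loess normalization, with the replicate block and at an adjusted p of 0.01, and 1 to 4 when 1 array was left out. The count was 4 when labelled-depleted replicate 4 was dropped, 2 for wild type replicate 2 and 1 for each other array. XTH14, at -0.04, ranged from -0.11 to 0.067 when 1 array was left out, turning sign without wild type replicate 2. Over all loci, deviations of same-numbered arrays had correlations of -0.05 to 0.04, and those of other pairs -0.07 to 0.10. The titles give replicate numbers only, and these correlations cannot show whether some genes share a pairing. With the replicate block 11 XTH genes were higher, XTH18 among them (adjusted p = 0.0244 in limma), and 3 lower. In that fit 3545 loci were called in place of 4042. The filter on dim loci kept 25 of the 33 members. Values near the array median limit the size of the folds of XTH25, XTH22, XTH23, XTH33, XTH30 and XTH31.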
